A study of Mus musculus with 9 samples.

Results

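The response of mouse macrophages to 6 h of lipopolysaccharide (LPS) was described across all genes of the deposited comparison of LPS-treated with untreated cells. The members are the 6 libraries of that comparison, of 9 in the series, and the 19975 genes, of 23001 in the table, that reached an average of 1 normalized read in either group. The cells were bone-marrow-derived macrophages of C57BL/6 mice aged 8 weeks, grown from marrow of the long leg bones for 6 days with macrophage colony-stimulating factor (M-CSF, 10 ng/ml). The 3 control libraries come from cells kept for 6 h in complete medium, and the 3 LPS libraries from cells kept for 6 h in the same medium with 500 ng/ml LPS. All 6 therefore share the strain, the M-CSF culture and the time, and the 3 remaining libraries, which also received an inhibitor of serine synthesis, were not used. Such cultures are a bulk mixture of the cells that marrow yields under M-CSF, so that fewer cells of a type and less RNA per cell cannot be told apart.

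LPS, a component of the outer membrane of Gram-negative bacteria, is presented by CD14 to the receptor TLR4 on macrophages. TLR4 signals through the adaptors MyD88 and TRIF, which activate the transcription factors NF-κB, AP-1 and IRF3. The first products include cytokines and interferon β, and interferon β then acts back on the same cells through its receptor. Beyond the well-known cytokines, activation is known to stop division, to remodel the actin cytoskeleton and surface receptors, and to call up inhibitors that end the response. A level below is a number of normalized reads, that is, reads of a gene divided by the size factor of the library, with no correction for gene length. A difference below is a log2 fold change of LPS over control with its SE, on the scale of log2(normalized reads + 1), on which the change of genes with few reads is understated. Of the 213 genes named below 67 have exons that overlap exons of another gene, and since the strand setting of the read counting is not given, reads of such pairs cannot be told apart. Genes said to rise or fall had a Benjamini-Hochberg adjusted p under 0.05 over all 19975 genes in limma.

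The stretches below come from just before the transcription start of genes on which the description turns, and show what letters stand there. The first 4 genes are the largest rises among the genes named in each abundance class that carried a searched motif, leaving out the best-known cytokines. Ifi205, an interferon-induced gene, and Mcm7, a subunit of the replicative helicase, were added after the motif shares of their families were seen. All sequences are RefSeq's promoters on GRCm38.p6, written from 5′ to 3′ on the strand of the gene, with the motif in capitals.
They are Upp1 at chr11:9117877-9117989 (plus strand), U90926 at chr5:92215541-92215585 (minus strand), Ptges at chr2:30903314-30903514 (minus strand), Shisa3 at chr5:67607701-67607841 (plus strand), Ifi205 at chr1:174031861-174031909 (minus strand) and Mcm7 at chr5:138172021-138172068 (minus strand).
Upp1: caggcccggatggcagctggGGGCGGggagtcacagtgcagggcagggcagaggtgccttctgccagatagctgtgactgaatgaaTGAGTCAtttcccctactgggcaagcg
U90926: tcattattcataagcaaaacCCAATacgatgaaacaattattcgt
Ptges: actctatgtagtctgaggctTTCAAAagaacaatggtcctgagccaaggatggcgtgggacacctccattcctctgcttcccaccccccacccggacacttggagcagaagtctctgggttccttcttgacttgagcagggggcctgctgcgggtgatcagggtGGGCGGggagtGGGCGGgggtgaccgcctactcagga
Shisa3: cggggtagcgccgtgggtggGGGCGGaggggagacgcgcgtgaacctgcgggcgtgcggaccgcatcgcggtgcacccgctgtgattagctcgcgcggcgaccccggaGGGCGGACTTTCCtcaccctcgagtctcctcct
Ifi205: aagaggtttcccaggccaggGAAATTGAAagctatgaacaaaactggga
Mcm7: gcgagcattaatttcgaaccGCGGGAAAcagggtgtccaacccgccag

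Upp1, which encodes the uridine phosphorylase that breaks uridine into uracil and ribose phosphate, had 16, 7.91 and 11.5 normalized reads in the controls and 7189, 9863 and 12174 in the LPS libraries. Its AP-1 site begins 45 bases before the start. U90926, a gene with little known about it, had no read in any control and 535, 628 and 949.9 normalized reads in the LPS libraries, and the only searched motif before its start was a CCAAT box. Ptges, the inducible prostaglandin E synthase, had 39.7, 40.3 and 38.8 in the controls and 25008, 31756 and 24973 with LPS, and carries 2 GC boxes and a TTTGAA element. Shisa3 had 2.09, 0 and 0 in the controls and 973, 821 and 580.5 with LPS, and its κB core begins 70 bases before the start and overlaps a GC box. Every LPS library lay above every control in all 4 genes, which was a condition for ranking them.

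Depth was similar in all 6 libraries, at 20586745 to 23601429 reads, but the reads were spread differently. The size factors were 1.21 to 1.43 in the controls and 0.715 to 0.843 with LPS, and reads were found for 19516 to 20933 genes in the controls and for 18292 to 19218 with LPS. The 1000 genes with the most reads took 62.1 ± 2.01% of reads in the controls and 70.1 ± 1.75% with LPS (SD, n = 3). Control 1 stood apart from the other controls. In it 72 of 11061 genes with at least 50 normalized reads in a control library lay 4-fold or more above both others, against 0 in control 2 and 1 in control 3. The 72 include Col3a1, Plvap and Cdh5, and 3 of the 22 stromal markers are among them. The summed level of 22 stromal markers was 43757, 9550 and 14720 in controls 1 to 3 and 27939, 38624 and 58047 in the LPS libraries. On this deposited scale control 1 lay within the LPS range. As a share of reads it lay above every LPS library, at 0.287% against 0.112 to 0.208%. The macrophage markers Csf1r (35236, 35465 and 39615 in the controls, 35670, 40429 and 35829 with LPS) and Lyz2 (183579, 205918 and 245074 in the controls, 219485, 260124 and 238830 with LPS) were high in every library, and their groups overlap. Of all 12 macrophage markers 5 rose and 3 fell (of all genes tested 41.8% were called), with 3 higher and 7 lower under CPM scaling or quantile normalization.

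LPS changed the level of a large part of the transcriptome in both directions. Of the 19975 genes 8355 were called (41.8%), 4089 of them higher (20.5%) and 4266 lower (21.4%), and the median difference over all genes was −0.05. Changes of at least 4-fold were made by 1231 genes upward (6.16%) and 1047 downward (5.24%). Counts of families and lists given below are to be set beside these shares. The balance of the directions depends on the scaling. Relative to library totals alone (CPM scaling) 2094 genes rose and 8550 fell. The median then moved to −0.68. With size factors from genes of 100 to 1000 reads 4749 rose and 3674 fell, with a median of 0.07. In shares of reads, the called higher genes took 38.1 ± 0.342% of reads in the controls and 66.4 ± 0.724% with LPS. The called lower genes took 17.4 ± 0.548% and 4.80 ± 0.335%. Genes that were not called also lost share, from 44.6 ± 0.770% to 28.8 ± 0.599%. A share needs no size factor, but the sets were chosen by their change in these libraries on the deposited scale. The direction of the shares of called genes therefore follows from that choice. The 1231 genes that rose by at least 4-fold went from 4.25 ± 0.244% to 23.7 ± 0.623%. The 40 best-known cytokine, chemokine and effector genes, not all of which rose that much, went from 0.137 ± 0.00314% to 2.21 ± 0.182%. Most of the reads gained with LPS fell on other genes. Of the 100 genes with the most reads in each group 55 were shared, the 45 that entered with LPS were all called higher, and 10 of the 45 that left were called lower.

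The share of genes that rose climbed with abundance. In the class of 10000 or more normalized reads (mean of the 6 libraries) 243 of 354 genes rose and 12 fell, with a median of 1.05. Under CPM scaling 179 were higher and 91 lower (median 0.35), and under quantile normalization 136 and 130 (median 0.03). From 1000 to 10000 reads 1576 of 3200 rose and 480 fell, with a median of 0.43 that turns to −0.27 under CPM scaling and to −0.11 under quantile normalization. The classes below were tilted downward, with 1251 higher and 1848 lower of 5832 from 100 to 1000 reads (median −0.12, and 0.01 with size factors taken from such genes). There were 641 and 1330 of 4160 from 10 to 100, and 378 and 596 of 6429 under 10. A gene that rises also moves up a class, since the mean includes the LPS libraries. Classed by the control mean alone, 88 of 207 genes of 10000 or more reads rose and 30 fell (median 0.35, but −0.35 under CPM scaling and −0.66 under quantile normalization). The counts were 1148 and 644 of 2916 from 1000 to 10000, 1526 and 1967 of 6276 from 100 to 1000, 618 and 1188 of 4011 from 10 to 100, and 709 and 437 of 6565 under 10. From 1000 to 10000 reads by the control mean the median was 0.25, but −0.45 under CPM scaling and −0.32 under quantile normalization. Counted by calls on the deposited scale, genes of 10 to 1000 reads tilted downward and genes of 1000 or more upward in both ways of classing. The genes under 10 reads tilted downward by the mean of all 6 and upward by the control mean.

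**Figure D1:**
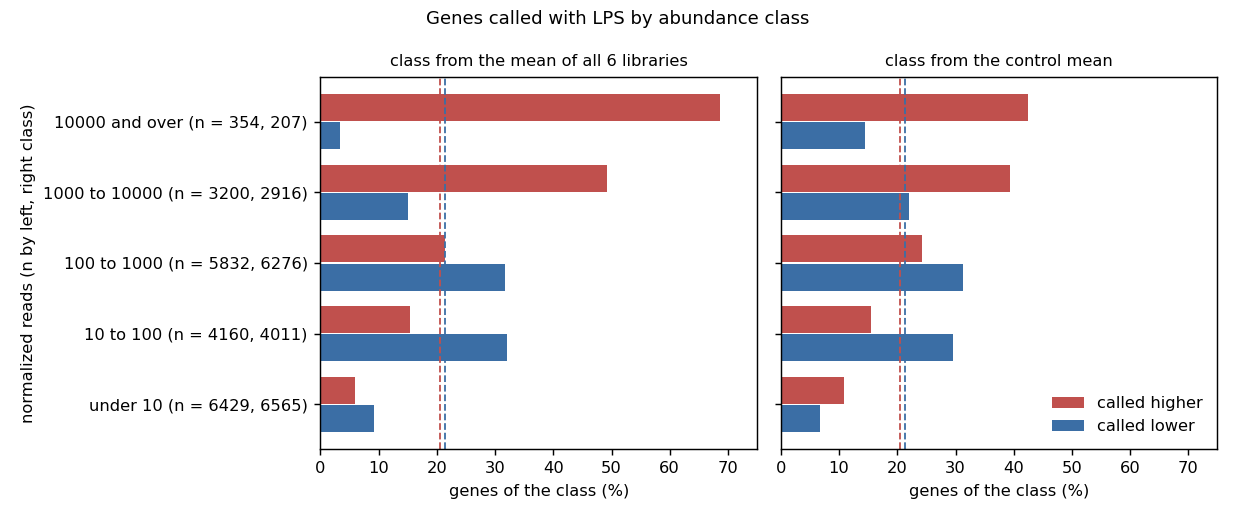
Share of genes called higher and lower with LPS (percent of the genes tested in a class, horizontal axis from 0) by abundance class, with classes from the mean of all 6 libraries (left) and from the control mean alone (right). Dashed lines mark the shares over all genes tested, 20.5% higher and 21.4% lower; the classes of 1000 or more reads lie above 20.5% higher in both panels.

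Among the genes of 10000 or more reads, the largest rises after the best-known cytokines were those of Ptges (log2 9.38 ± 0.15, adjusted p = 2.8e-11), Socs3 and Gpr84. Socs3, which blocks signalling by cytokine receptors of the IL-6 type, had 176, 97.8 and 115 normalized reads in the controls and 49034, 71105 and 67117 with LPS (log2 8.93 ± 0.22, adjusted p = 3.61e-10). Gpr84, a receptor for medium-chain fatty acids, had 130.3, 115 and 88.2 in the controls and 27547, 35929 and 32190 with LPS (log2 8.16 ± 0.18, adjusted p = 2.02e-10). The LPS libraries of these genes lay far above every control. The largest falls of the class were smaller: Lipa, the lysosomal acid lipase, had 25788, 28357 and 30398 in the controls and 7868, 7780 and 7257 with LPS (log2 −1.88 ± 0.14, adjusted p = 1.19e-06). Selenop, a secreted carrier of selenium (−1.87 ± 0.15), and Atp13a2, a lysosomal polyamine exporter (−1.74 ± 0.18), fell to a similar degree. Of the genes with the most reads of all, Apoe, the lipoprotein of macrophages, rose (log2 0.84 ± 0.19, adjusted p = 0.0044). So did Fth1, the ferritin heavy chain (log2 1.12 ± 0.20, adjusted p = 0.000951), and the class I molecules H2-K1 (1.08 ± 0.20) and H2-D1 (0.80 ± 0.21). Under CPM scaling Apoe (0.14) and H2-D1 (0.10) were not called, nor was Apoe under quantile normalization. The lysosomal genes Psap (−0.18 ± 0.18, adjusted p = 0.46) and Ctsb (0.08 ± 0.17, adjusted p = 0.738) and the membrane glycoprotein Gpnmb (−0.13 ± 0.19, adjusted p = 0.611) did not pass the test. Psap and Gpnmb were called lower under CPM scaling (−0.88 and −0.84) and quantile normalization (−0.71 and −0.58).

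Between 1000 and 10000 reads, Upp1 (log2 9.59 ± 0.26, adjusted p = 4.68e-10), the vasoconstrictor peptide gene Edn1 and the endothelial lipase gene Lipg rose most. Edn1 had 23.7, 2.88 and 1.65 normalized reads in the controls and 2766, 2392 and 2844 with LPS (log2 8.72 ± 0.70, adjusted p = 1.35e-05), and control 1 held most of the few control reads. Without it the difference was 9.70. Lipg had 46, 15.8 and 9.89 in the controls and 3880, 3776 and 6555 with LPS (log2 7.80 ± 0.48, adjusted p = 2.41e-06), and its difference was 8.40 without control 1. The opposite change was steepest for Arhgap19, an inactivator of RhoA, at 6139, 5535 and 5583 in the controls and 94.9, 78.3 and 81.2 with LPS (log2 −6.07 ± 0.15, adjusted p = 3.44e-10). Sesn1, a p53 target that restrains mTORC1, had 2720, 2829 and 2755 in the controls and 77.1, 54.5 and 69 with LPS (log2 −5.36 ± 0.17, adjusted p = 1.34e-09). Sgsh, the lysosomal heparan sulphamidase, had 2536, 2843 and 3141 in the controls and 121, 120.3 and 120.4 with LPS (log2 −4.54 ± 0.15, adjusted p = 1.77e-09). All 3 were tight within each group, and no LPS library came near a control.

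From 100 to 1000 reads the largest rises were U90926 (log2 9.42 ± 0.33, adjusted p = 2.94e-09), Shisa3 (log2 9.06 ± 0.44, adjusted p = 3.45e-08) and Ifng. The bound for U90926, set against 3 reads over the whole control group, is at least 948-fold higher, from 1602 reads with LPS. Ifng, interferon γ, usually a product of T and natural killer cells, had 2.79, 0.719 and 0.825 in the controls and 794, 701 and 1655 with LPS (log2 8.74 ± 0.40, adjusted p = 2.27e-08). Defining T-cell genes stayed low beside it and did not pass the test: Cd3e had 25.1, 12.9 and 12.4 in the controls and 8.31, 12.6 and 37.9 with LPS, and Cd3g had 39, 18.7 and 23.1 in the controls and 19, 19.6 and 33.8 with LPS. The natural killer marker Ncr1 had 16, 12.9 and 9.07 in the controls and 27.3, 43.4 and 37.9 with LPS (log2 1.45 ± 0.35, adjusted p = 0.00628). Its call was lost under CPM scaling (0.78, adjusted p = 0.0981). Over the 12 T and natural killer cell markers 3 rose and 2 fell (median 0.16, which turns below 0 under CPM scaling and without LPS 3). Their summed level was 4053 to 6721 in the controls and 2192 to 2793 with LPS, most of it Cd4. Their part in the Ifng result was not tested. Downward, Nat8l, which makes N-acetylaspartate, had 558, 605 and 703 in the controls and 5.93, 19.6 and 6.77 with LPS (log2 −5.91 ± 0.37, adjusted p = 2.28e-07). St6gal1, which adds α2,6-linked sialic acid, had 797, 816 and 883 in the controls and 15.4, 18.2 and 13.5 with LPS (log2 −5.65 ± 0.20, adjusted p = 3.61e-09). The clock output factor Dbp had 813, 1056 and 1119 in the controls and 14.2, 32.2 and 17.6 with LPS (log2 −5.55 ± 0.28, adjusted p = 4.54e-08).

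Genes of few reads also changed steeply. From 10 to 100 reads, Rnf225 (log2 5.96 ± 0.45, adjusted p = 1.16e-06), the kinase gene Alpk2 (log2 5.74 ± 0.42, adjusted p = 8.61e-07) and Il23r, a receptor subunit for IL-23 (log2 5.68 ± 0.53, adjusted p = 5.84e-06), rose most. Il23r had 7.67, 1.44 and 0.825 normalized reads in the controls and 224, 130.1 and 175 with LPS, and its difference was 6.36 without control 1. Chp2, a calcineurin-like calcium-binding protein, had 161, 69 and 99.8 in the controls and no read in any LPS library (log2 −6.71 ± 0.44, adjusted p = 3.13e-07), from 448 control reads and so at least 84.2-fold lower. Abcd2, a peroxisomal fatty acid transporter (log2 −5.22 ± 0.66, adjusted p = 6.59e-05), and the glycosyltransferase gene B3gnt7 (log2 −5.07 ± 0.39, adjusted p = 1.29e-06) followed. The difference of Abcd2 was −5.91 without LPS 1 and −4.30 without LPS 2. Under 10 reads, Il1f6, the IL-36α gene, had 0 in every control and 16.6, 18.2 and 20.3 with LPS (log2 4.27 ± 0.47, adjusted p = 2.22e-05). Insrr (3.96 ± 0.53) and Ceacam18 (3.96 ± 0.50) rose beside it. Scel (−4.05 ± 0.48), the melanosome adaptor Mlph (−4.004 ± 0.52) and Zfp2 (−3.88 ± 0.49) fell to 0 reads in all 3 LPS libraries. Against 3 reads over the group without reads, Il1f6 was at least 24.7-fold higher, and Scel, Mlph and Zfp2 at least 12.01-fold, 12.2-fold and 10.7-fold lower. With a minimum of 30 reads in a group and none in the other, 17 genes were read with LPS only and 16 in the controls only. The first set includes Il22, at 21.4, 16.8 and 63.6 normalized reads and so at least 45.6-fold higher, and the hyaluronan synthase gene Has1, at 24.9, 18.2 and 27.1. The second includes Tlr5, the receptor for flagellin, at 41.1, 12.2 and 15.7 in the controls, with control 1 highest. It was at least 17.6-fold lower with LPS.

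**Figure D2:**
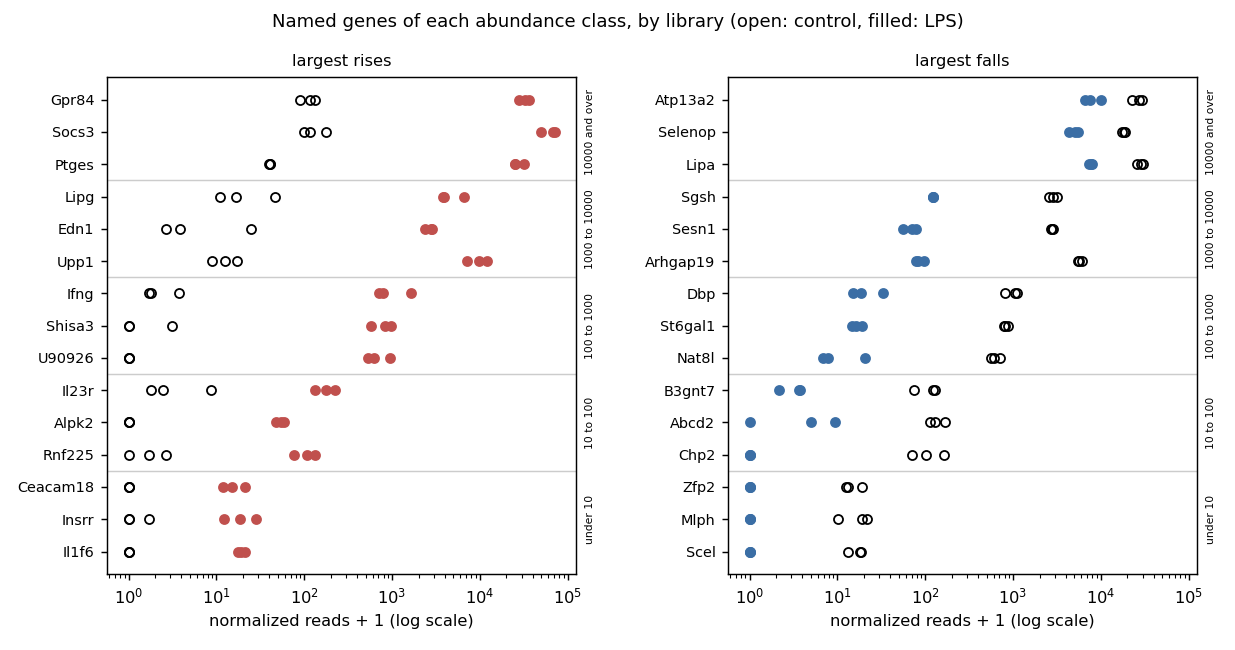
Normalized reads plus 1 (logarithmic horizontal axis) in each library for the largest rises (left) and largest falls (right) named in each abundance class; open points are the 3 controls and filled points the 3 LPS libraries. Only genes whose 2 groups are separate were eligible, so the separation in every row follows from the choice. Genes of few reads reach the edge at 0 reads in 1 group.

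Long noncoding genes moved in both directions, and which direction was the more frequent depended on the scaling and on control 1. Of 3134 long noncoding genes tested 316 rose and 398 fell (median −0.30, below 0 under all 4 other scalings), and of 791 annotated as lincRNA 83 rose and 137 fell (median −0.40). Without control 1, 298 rose and 268 fell (median −0.14). With all 6 libraries, quantile normalization gave 374 higher and 333 lower, and size factors from genes of 100 to 1000 reads gave 354 and 353. Mir155hg, the host gene of miR-155, had 0, 1.44 and 2.47 in the controls and 746, 380.4 and 558 with LPS (log2 8.06 ± 0.45, adjusted p = 9.76e-08). Ptgs2os2, transcribed near the cyclooxygenase gene Ptgs2, had 2.09, 2.16 and 0.825 in the controls and 193, 185 and 239.5 with LPS (log2 6.30 ± 0.35, adjusted p = 8.34e-08). Ptgs2os, a transcript that begins 68 bases from Ptgs2, had no control read and 74.8, 29.4 and 52.8 with LPS. Gm5086 fell the most of the lincRNAs, at 110.1, 124 and 98.1 in the controls and 0, 1.4 and 0 with LPS (log2 −6.38 ± 0.45, adjusted p = 5.8e-07), followed by 5031425F14Rik (−4.27 ± 0.42). Firre, which anchors X-chromosome loci in the nucleus, fell by 1.83, and the imprinted Peg13 by 1.99. The nuclear RNAs Malat1 (23428, 20098 and 11380 in the controls and 17086, 8424 and 9413 with LPS, adjusted p = 0.102) and Neat1 (9740, 8588 and 5277 in the controls and 6736, 4625 and 4621 with LPS, adjusted p = 0.0893) did not pass the test. Both were higher in control 1 and LPS 1 than in the other libraries of their groups. Both were called lower when LPS 1 (−0.98 and −0.72) or control 3 (−0.97 and −0.80) was left out. With all 6 libraries they were called lower under CPM scaling (−1.36 and −1.24) and quantile normalization (−1.65 and −1.43). Gas5, a host of small nucleolar RNAs, fell (log2 −0.89 ± 0.15, adjusted p = 0.000558), and of the 13 Snhg host genes 3 fell and none rose (median −0.33).

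Noncoding genes called with LPS usually lay beside a coding gene that moved the same way. Among the 316 that rose, the nearest protein-coding gene tested rose for 229 (72.5%) and fell for 21 (6.65%). Beside the 2420 noncoding genes that were not called it rose for 775 (32.02%) and fell for 571 (23.6%). Among the 398 that fell it fell for 216 (54.3%) and rose for 53 (13.3%). The shared direction thinned out with distance. For rising genes the coding gene rose in 172 of 210 that overlap it (81.9%), in 28 of 38 within 5000 bases (73.7%), in 20 of 39 from 5000 to 50000 bases (51.3%) and in 9 of 29 farther away (31.0%). Because the strand setting of the read counting is not given, reads of overlapping pairs cannot be told apart, and the part of shared reads in the shared direction was not tested. One example outside any overlap is 2010110E17Rik, which lies 430 bases from N4bp1, an RNase that restrains cytokine production (5.27 and 2.49). Another is 2010008C14Rik, 965 bases from the lysophosphatidic acid receptor gene Lpar5 (−4.44 and −5.31). A counterexample was Gm14199, an antisense transcript in Ttll9, which rose from 0 in all controls to 55.8, 82.5 and 56.8 (log2 6.02 ± 0.42, adjusted p = 5.8e-07), while Ttll9 stayed between 0 and 6.77 (adjusted p = 0.136). Another was Gm14005, which rose (3.53 ± 0.19) 15772 bases from Bcl2l11, the pro-apoptotic BIM gene, which fell (−1.27 ± 0.14). The pairs of this paragraph were chosen after their values were seen, Gm14199 excepted.

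**Figure D3:**
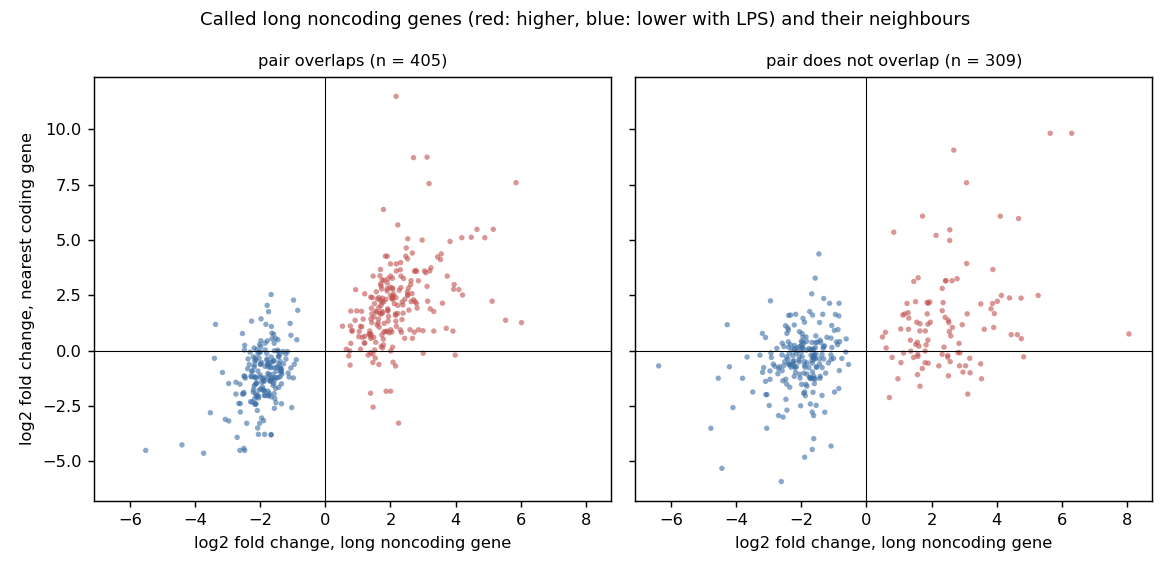
Log2 fold change of each called long noncoding gene (horizontal axis) against that of its nearest protein-coding gene tested (vertical axis), for pairs that overlap (left) and pairs at least 1 base apart (right). Most rising noncoding genes sit in the upper right quadrant and most falling ones in the lower left, with a looser spread where the pair does not overlap.

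Pseudogenes tilted the other way from long noncoding genes. Of 1779 tested 230 rose and 96 fell (median 0.12, which turns below 0 under CPM scaling), and of 1481 processed pseudogenes 183 rose and 62 fell (median 0.14, below 0 under CPM scaling). Reads of a pseudogene and of its parent can be hard to tell apart, so these values are uncertain. The genes named were ranked within each pseudogene biotype, among those with separate groups and at least 50 normalized reads in the higher group. Rises included Gm19026, at 2.79, 4.32 and 3.3 in the controls and 342, 274 and 129.9 with LPS (log2 5.71 ± 0.38, adjusted p = 4.06e-07), and Gm5345 (log2 3.97 ± 0.23, adjusted p = 1.15e-07). Falls included Gm19680 (log2 −2.16 ± 0.25, adjusted p = 3.57e-05) and Gm6768 (log2 −2.04 ± 0.14, adjusted p = 6.3e-07). Nlrp1c-ps, beside the inflammasome sensor genes of the Nlrp1 type, fell from 242, 174 and 98.1 to 3.56, 5.59 and 2.71 (log2 −5.07 ± 0.39, adjusted p = 1.34e-06). Gapdh, a glycolytic enzyme gene with many processed copies, had only 109, 97.1 and 77.5 normalized reads in the controls and 3252, 385 and 353 with LPS (log2 3.01 ± 0.74, adjusted p = 0.00998). LPS 1 was far above LPS 2 and LPS 3, and without it the difference was 1.97 (adjusted p = 4.98e-05). Small RNA genes, which standard libraries capture poorly, gave 27 rises and 16 falls among 351 tested (median 0.01).

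Short genes with few exons made more of the large rises and long genes more of the falls. Among 14572 protein-coding genes 3514 rose and 3749 fell. In the quartile with the least exonic length (under 2548 bases) 323 of 3646 rose by at least 4-fold (8.86%) and 728 fell by any amount (19.97%). In the longest quartile (over 6400 bases) the numbers were 188 of 3643 (5.16%) and 1078 (29.6%). By exon number, 354 of 4101 genes with up to 5 exons rose by at least 4-fold (8.63%) and 160 of 3325 with more than 15 (4.81%). Over the same quartiles of exon number 887 (21.6%) and 1029 (30.9%) fell. Length also moves with the number of reads of a gene. Among genes of 100 to 10000 reads alone, 183 of 1775 in the shortest quartile rose by at least 4-fold (10.3%) and 127 of 2472 in the longest (5.14%), and 360 (20.3%) and 758 (30.7%) fell.

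Families of transcription factors differed in direction. Of 1041 tested 231 rose and 332 fell (median −0.26, below 0 under all 4 other scalings; 243 and 262 without control 1). The C2H2 zinc finger genes were the main downward group, with 58 higher and 197 lower of 468 (median −0.69, below 0 under all scalings). The signal-dependent families went up. In the Rel family, which comprises the NF-κB and NFAT factors, the 5 NF-κB members rose, led by Nfkb2 at 1208, 1501 and 1595 in the controls and 19950, 27914 and 22651 with LPS (log2 4.03 ± 0.17, adjusted p = 1.38e-08). Of the 5 NFAT members 3 fell, led by Nfatc2 at 2211, 2208 and 2278 in the controls and 202, 249 and 164 with LPS (log2 −3.46 ± 0.17, adjusted p = 3.68e-08). Of 8 interferon regulatory factors 6 rose and none fell. Irf1 had 1536, 1465 and 1499 in the controls and 20726, 22290 and 26596 with LPS (log2 3.94 ± 0.15, adjusted p = 4.49e-09). Of 7 STAT factors 6 rose, among them Stat3 (log2 2.79 ± 0.15, adjusted p = 5.94e-08). All of these directions held under every scaling tried except those of Stat5b (0.53) and Irf9 (0.53), which turn below 0 under CPM scaling and quantile normalization. Stat5b also lost the call without LPS 3 (0.49, adjusted p = 0.0527).

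Among the bZIP factors, which form AP-1 and related dimers, 20 of 45 rose and 8 fell (median 0.19, below 0 under CPM scaling). Batf2, an interferon-induced factor, had 348, 337 and 366 in the controls and 8337, 11723 and 11525 with LPS (log2 4.89 ± 0.16, adjusted p = 2.01e-09). Maff (4.66 ± 0.21), Junb (3.88 ± 0.20), Batf (3.55 ± 0.17), Fosl2 (3.32 ± 0.16) and Fosl1 (3.07 ± 0.44) rose. That of Fosl1 was 3.69 without control 1. The immediate early genes Fos, at 1181, 1039 and 1224 in the controls and 997, 1064 and 1187 with LPS (adjusted p = 0.673), and Jun, at 4570, 5414 and 5894 in the controls and 3716, 5450 and 4498 with LPS (adjusted p = 0.33), did not pass the test at 6 h. Both were called lower under CPM scaling (−0.79 and −0.93) and quantile normalization (−0.43 and −1.03). Of 22 ETS factors 10 rose and 3 fell (median 0.48, below 0 under CPM scaling). Ets2 had 469, 474 and 557 in the controls and 8250, 8919 and 7379 with LPS (log2 4.03 ± 0.15, adjusted p = 3.79e-09). Spi1, which encodes the macrophage master factor PU.1, had 11858, 15526 and 17179 in the controls and 45896, 72455 and 53687 with LPS (log2 1.94 ± 0.21, adjusted p = 1.62e-05). Its partner in macrophages Cebpa fell from 11137, 14128 and 14568 to 1290, 2884 and 1823 (log2 −2.80 ± 0.25, adjusted p = 4.37e-06). Of the 6 factors annotated as RXR-like 5 fell and none rose (median −0.82). Rxra had 3804, 3954 and 4603 in the controls and 1315, 1636 and 1230 with LPS (log2 −1.57 ± 0.16, adjusted p = 1.11e-05).

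Genes with a Zfp symbol, most of them zinc finger proteins, fell more often than they rose. Of 358 tested 168 fell and 33 rose, with a median of −0.77 that stayed below 0 under every scaling, and 126 fell and 29 rose without control 1. By at least 4-fold 42 of them fell (11.7%, against 5.24% of all genes). Zfp395 (log2 −4.08 ± 0.25, adjusted p = 2.07e-07) and Zfp704 (−2.77 ± 0.17) fell, and Zfp36, the tristetraprolin gene whose product destroys cytokine mRNAs, rose (log2 3.39 ± 0.17, adjusted p = 3.45e-08). The longest run of neighbouring genes that fell together, 10 genes on chromosome 13 from 67515781 to 67830985, was a zinc finger cluster from Zfp87 to Zfp493 and 4930525G20Rik. Zfp729a there had 246, 188 and 119.6 in the controls and 106, 57.3 and 51.4 with LPS. Zfp65 had 124, 108 and 66.8 in the controls and 64.1, 23.8 and 42 with LPS. In both, as in Malat1, control 3 was the lowest control and LPS 1 the highest LPS library, and the part of that order in their fall was not tested. The same order held in every member of the run with at least 50 normalized reads in each control, and in Atm and Npat of a run on chromosome 9. In the members with fewer reads it did not hold, and Zfp493 was highest in LPS 3 among the LPS libraries. Zfp65 lost the call when any of LPS 2, LPS 3, control 1 or control 2 was left out, and under quantile normalization (−0.93, adjusted p = 0.0566).

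Other runs of neighbours held further clusters. The longest upward run, 10 genes on chromosome 17 from 34181988 to 34316199, lies in the major histocompatibility complex. It joins the immunoproteasome genes Psmb9 and Psmb8 and the peptide transporters Tap1 and Tap2 to the class II genes H2-Ab1, H2-Aa and H2-Eb1. Tap2 had 1789, 2035 and 2139 normalized reads in the controls and 9539, 13250 and 12904 with LPS (log2 2.57 ± 0.17, adjusted p = 3.05e-07). The class II genes rose less, by 0.87, 0.53 and 0.65, and all 3 turn below 0 under quantile normalization, H2-Aa and H2-Eb1 also under CPM scaling. Control 1 was the highest control for all 3 of them. The groups overlap for H2-Aa and H2-Eb1, which lose the call when any of LPS 2, LPS 3, control 2 or control 3 is left out (adjusted p of 0.0718 to 0.19). With all 6 libraries H2-Aa also lost it with TMM scaling (adjusted p = 0.0922), a pseudocount of 0.1 (adjusted p = 0.0556) and edgeR (adjusted p = 0.0662), and H2-Ab1 under CPM scaling (0.17, adjusted p = 0.508). Next came 5 upward runs of 8 genes. One on chromosome 14 holds the Phf11 genes and Setdb2. Phf11a had 174, 202 and 168 in the controls and 2377, 2629 and 2843 with LPS (log2 3.85 ± 0.15, adjusted p = 6.89e-09). Another, on chromosome 1, holds the DNA sensor gene Aim2 (0.69 ± 0.17, but −0.01 under CPM scaling) and the related Ifi206, Ifi214, Ifi213, Ifi209 and Ifi208 (2.32 to 3.36). After the zinc finger cluster the longest downward runs had 7 genes. One on chromosome 9 holds the DNA damage kinase gene Atm (log2 −1.81 ± 0.32, adjusted p = 0.000736) and Npat, a factor for histone gene transcription (−1.33 ± 0.35). One on chromosome 3 holds Fam198b (−4.70 ± 0.27), Tmem144 (−4.62 ± 0.33) and the electron transfer enzyme gene Etfdh (−1.65 ± 0.20).

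Genes of DNA replication, repair and chromosome movement fell together. Of 40 repair genes 30 fell and 1 rose (median −1.32), and 28 fell and none rose without control 1. Brca2, of the repair of DNA breaks, had 64.1, 59.7 and 51.1 in the controls and 14.2, 5.59 and 6.77 with LPS (log2 −2.68 ± 0.38, adjusted p = 0.000156). Ercc1, of nucleotide excision repair, was the 1 gene that rose (0.68 ± 0.21), but stood at −0.02 under CPM scaling and lost the call without LPS 2, LPS 3, control 1 or control 2. Of 29 helicase, origin and DNA polymerase genes 19 fell and 3 rose (median −0.79). Mcm2 had 756, 1050 and 1172 in the controls and 172, 260.1 and 333 with LPS (log2 −1.98 ± 0.25, adjusted p = 5.66e-05), and all 6 subunits of the helicase, Mcm2 to Mcm7, fell. Of 34 kinesins 22 fell and 3 rose (median −1.27), among them the mitotic motors Kif23 (log2 −2.79 ± 0.27, adjusted p = 8.84e-06) and Kif11 (log2 −1.95 ± 0.27, adjusted p = 0.000129). Of 55 centromere and centrosome genes 29 fell and 4 rose (median −0.97). The medians of these 4 sets stayed below 0 under every scaling.

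The proteasome and the actin cytoskeleton went the other way. Of 47 genes with a Psm symbol 33 rose and 2 fell (median 0.76, above 0 under every scaling; 19 and 11 under CPM scaling). Psme2, a subunit of the PA28 activator, had 1289, 1295 and 1709 in the controls and 11529, 15044 and 14396 with LPS (log2 3.26 ± 0.17, adjusted p = 5.52e-08). The catalytic immunoproteasome subunit gene Psmb10 had 2521, 2769 and 3264 in the controls and 11870, 19484 and 17518 with LPS (log2 2.49 ± 0.20, adjusted p = 1.59e-06). Subunits of the constitutive core rose too, such as Psma6 (log2 2.05 ± 0.15, adjusted p = 6.7e-07) and Psmb6 (log2 1.88 ± 0.21, adjusted p = 2.42e-05). Of 40 actin and motility genes 26 rose and 6 fell (median 0.99). Under CPM scaling 19 were higher and 12 lower (median 0.29), and under quantile normalization 10 and 11 (median 0.06). Marcksl1, which binds membrane phosphoinositides and actin, had 1445, 1547 and 1752 in the controls and 102222, 158734 and 115681 with LPS (log2 6.29 ± 0.18, adjusted p = 7.49e-10). Vasp, which extends actin filaments, had 4364, 5606 and 5919 in the controls and 50648, 75087 and 57795 with LPS (log2 3.52 ± 0.19, adjusted p = 6.48e-08). Fscn1, which bundles them, had 813, 242 and 277 in the controls and 7758, 10170 and 6786 with LPS (log2 4.42 ± 0.41, adjusted p = 3.54e-05), with control 1 well above the other controls. The falls included the organelle motor Myo5a (−2.60 ± 0.21) and the filament-severing Gsn (−1.31 ± 0.20). Actb, β-actin, often used as a reference gene, had 35224, 40050 and 45006 in the controls and 175354, 223590 and 213799 with LPS (log2 2.35 ± 0.17, adjusted p = 7.81e-07). Hprt, another reference gene, had 1798, 2131 and 2369 in the controls and 1370, 1635 and 1248 with LPS (log2 −0.57 ± 0.16, adjusted p = 0.0153). Hprt lost the call without LPS 3, control 2 or control 3 (adjusted p of 0.0697 to 0.0838).

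Surface receptors moved in both directions. Of 48 G protein-coupled receptors 19 rose and 15 fell (median 0.15, below 0 under CPM scaling and quantile normalization). Hcar2, the niacin receptor, had 24.4, 28.8 and 31.3 in the controls and 4527, 4127 and 5436 with LPS (log2 7.33 ± 0.17, adjusted p = 3.38e-10). Adora2a, an adenosine receptor that dampens inflammation, had 152, 167 and 169 in the controls and 9624, 14521 and 10704 with LPS (log2 6.13 ± 0.17, adjusted p = 5.73e-10). The formyl peptide receptor gene Fpr1 had 286, 350.3 and 395 in the controls and 16908, 16986 and 16411 with LPS (log2 5.62 ± 0.15, adjusted p = 5.36e-10). In the other direction Lpar5 went from 494, 604 and 782 to 17.8, 21 and 8.12 (log2 −5.31 ± 0.33, adjusted p = 2.04e-07). Gpr155 (−5.15 ± 0.39) and the ADP receptor P2ry12 (−2.31 ± 0.29) fell. Of 36 inhibitory and phosphatase-linked receptor entries 18 rose and 7 fell (median 0.73). Under CPM scaling 12 were higher and 13 lower (median 0.03), and under quantile normalization 14 and 12. Siglece, a sialic acid receptor that recruits phosphatases, had 247, 452 and 440.3 in the controls and 6975, 7288 and 5124 with LPS (log2 4.12 ± 0.24, adjusted p = 1.07e-07). Cd300a, an inhibitory receptor for phospholipids, had 5208, 5129 and 5891 in the controls and 367, 477 and 456 with LPS (log2 −3.65 ± 0.15, adjusted p = 1.11e-08). Tlr4 itself fell (log2 −0.81 ± 0.17, adjusted p = 0.00263) and its co-receptor Cd14 rose, from 3310, 4315 and 4793 to 77502, 92776 and 87704 (log2 4.39 ± 0.17, adjusted p = 7.04e-09). The adhesion receptor Itgb8, which activates latent TGF-β, had 1.39, 1.44 and 4.12 in the controls and 329.9, 227 and 135 with LPS (log2 6.13 ± 0.43, adjusted p = 5.52e-07).

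Secreted growth factors and clotting genes rose more often than they fell. Of 26 growth factors 16 rose and 7 fell (median 1.35, above 0 under every scaling; 15 and 6 without control 1). The rises beside Edn1 were led by Lif, a factor of the IL-6 type (log2 5.51 ± 0.54, adjusted p = 8.35e-06), and the lymphatic growth factor Vegfc (log2 5.20 ± 0.26, adjusted p = 3.6e-08). Inhba, the activin A subunit, had 294, 47.5 and 47.8 in the controls and 3605, 1987 and 3563 with LPS (log2 5.05 ± 0.64, adjusted p = 0.000232), and control 1 was far above the other controls. Without control 1 the differences were 6.25 for Lif and 5.92 for Inhba. Vegfb (−1.84 ± 0.23), Fgf2 (−2.04 ± 0.47) and Pdgfc (−1.76 ± 0.26) fell. Of 22 coagulation and fibrinolysis genes 12 rose and 5 fell (median 0.96, above 0 under every scaling). F3, tissue factor, which starts clotting, had 8.36, 2.88 and 9.07 in the controls and 112, 92.3 and 175 with LPS (log2 4.10 ± 0.42, adjusted p = 1.26e-05). Factor X, F10, had 239, 145 and 158 in the controls and 2562, 2611 and 4686 with LPS (log2 4.15 ± 0.26, adjusted p = 1.95e-07). Serpinb2, an inhibitor of plasminogen activators, had 89.9, 30.9 and 25.6 in the controls and 6545, 5144 and 3942 with LPS (log2 6.91 ± 0.42, adjusted p = 1.33e-06). The endothelial protein C receptor Procr rose (log2 5.32 ± 0.22, adjusted p = 1.07e-08), and thrombomodulin, Thbd, which acts with it against clotting, fell (log2 −1.87 ± 0.21, adjusted p = 2.93e-05). Gas6, a ligand of the receptors that clear dying cells, went from 11066, 13126 and 15738 to 2190, 3814 and 2287 (log2 −2.30 ± 0.22, adjusted p = 7.62e-06).

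Clock, nuclear receptor and growth-restraint genes moved in both directions. Of 20 clock genes 7 rose and 9 fell (median −0.37). The D-box activators Dbp and Tef (log2 −3.01 ± 0.17, adjusted p = 9.14e-08) fell, and their repressor Nfil3 rose from 153, 103 and 133 to 1121, 1305 and 1650 (log2 3.38 ± 0.20, adjusted p = 1.45e-07). Per2 (−1.40 ± 0.28) and Nr1d2 (−2.50 ± 0.20) fell and Cry1 rose (1.76 ± 0.16). Of 24 nuclear receptors 9 rose and 10 fell (median 0.13, but −0.43 under CPM scaling and −0.02 without control 1). The lipid sensor gene Pparg had 692, 874 and 844 in the controls and 122, 106 and 126 with LPS (log2 −2.75 ± 0.17, adjusted p = 2.04e-07), whereas Nr4a3 (3.70 ± 0.26) and the liver X receptor gene Nr1h3 (2.12 ± 0.21) rose. Among 30 growth-restraint genes 9 rose and 13 fell (median −0.34). Deptor, a brake on mTOR, had 153, 126 and 112 in the controls and 8.31, 2.8 and 2.71 with LPS (log2 −4.68 ± 0.40, adjusted p = 3e-06). Cdkn1a, the p21 cyclin kinase inhibitor (log2 3.35 ± 0.20, adjusted p = 1.22e-07), and Gadd45b (log2 3.55 ± 0.19, adjusted p = 5.56e-08) rose. In lipid synthesis Lpin1, a phosphatidate phosphatase, fell from 468, 419 and 553 to 26.1, 26.6 and 33.8 (log2 −4.01 ± 0.21, adjusted p = 6.16e-08). Dgat2, the enzyme of the last step of triglyceride synthesis, rose from 53, 40.3 and 47 to 756, 681 and 1089 (log2 4.12 ± 0.22, adjusted p = 5.92e-08).

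Solute carriers and enzymes of the membrane moved in both directions. Of 265 solute carriers 57 rose and 74 fell (median −0.08, which turns above 0 with size factors from genes of 100 to 1000 reads). Over all genes tested 20.5% rose and 21.4% fell, so the share of carriers that rose was near that of all genes. Slc28a2, a concentrative nucleoside transporter, had 482, 532 and 542 normalized reads in the controls and 17703, 16484 and 22621 with LPS (log2 5.18 ± 0.16, adjusted p = 1.06e-09). Slc7a2, which carries arginine, had 146, 164 and 160.0 in the controls and 8587, 5351 and 7571 with LPS (log2 5.48 ± 0.18, adjusted p = 2.01e-09). Slc2a6, of the glucose transporter family, had 604, 791 and 769 in the controls and 23105, 38118 and 31973 with LPS (log2 5.41 ± 0.20, adjusted p = 3.84e-09). Slc46a3, a lysosomal transporter, went down from 1393, 1346 and 1506 to 45.1, 53.1 and 39.2 (log2 −4.93 ± 0.18, adjusted p = 3.45e-09). Every LPS library of the 4 lay outside the range of the controls. Of 39 ATP-binding cassette transporters 19 fell and 6 rose (median −0.60, below 0 under every scaling). Abcg3 (log2 −4.66 ± 0.27, adjusted p = 1.23e-07) and Abcc3 (−1.71 ± 0.15) fell and Abcc1 rose (1.72 ± 0.16). Of 66 sialyl-, galactosyl-, fucosyl- and N-acetylglucosaminyltransferases 13 rose and 21 fell (median −0.18, below 0 under every scaling). The sialyltransferases split: against the fall of St6gal1, St3gal5, which makes the ganglioside GM3, rose from 352, 483 and 459 to 5264, 5373 and 4970 (log2 3.60 ± 0.16, adjusted p = 1.45e-08) and St3gal1 by 2.78.

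Vesicle traffic genes were divided by family. Sorting nexins and Vps genes fell more often than they rose, 25 against 11 of 60 (median −0.24, below 0 under every scaling), led by Snx5 (log2 −2.76 ± 0.14, adjusted p = 3.64e-08). Of 67 genes with a Rab symbol 25 rose and 16 fell (median 0.28, below 0 under CPM scaling and quantile normalization). Rab20, a phagosomal Rab, had 413, 358 and 405 in the controls and 3751, 5596 and 4950 with LPS (log2 3.58 ± 0.17, adjusted p = 2.77e-08). Rab3il1, an exchange factor for Rab8, had 3500, 4166 and 4835 in the controls and 228, 291 and 252 with LPS (log2 −4.01 ± 0.17, adjusted p = 1.03e-08). Of 32 tyrosine phosphatases 15 rose and 7 fell (median 0.68), with 9 higher and 10 lower under CPM scaling (median 0.08). Ptpn6, the SHP-1 gene (log2 1.74 ± 0.15, adjusted p = 2.7e-06), and Ptpn1 (1.68 ± 0.16) rose, and the receptor-type Ptprs fell (log2 −2.12 ± 0.16, adjusted p = 1.21e-06). Of 67 RING finger ligases 24 rose and 7 fell (median 0.27, below 0 under CPM scaling). The member with the smallest p fell: Rnf144b had 1415, 1257 and 1262 in the controls and 30.9, 23.8 and 29.8 with LPS (log2 −5.50 ± 0.18, adjusted p = 2.01e-09). Of 12 Ms4a genes, small membrane proteins with 4 spans, 8 rose and 1 fell (median 1.23, above 0 under every scaling), led by Ms4a4c (log2 2.86 ± 0.15, adjusted p = 6.48e-08).

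Notch genes and phosphoinositide kinases moved in both directions. Of 26 Notch receptors, ligands and targets 9 rose and 8 fell (median 0.39, below 0 under CPM scaling and quantile normalization). The ligand Jag1 had 253, 205 and 261 in the controls and 2487, 2166 and 2291 with LPS (log2 3.27 ± 0.15, adjusted p = 2.63e-08). The ligand gene Dll1 had 4.18, 2.16 and 5.77 in the controls and 75.9, 75.5 and 88 with LPS (log2 4.07 ± 0.37, adjusted p = 5.34e-06). The receptor gene Notch1 had 1986, 1598 and 1666 in the controls and 9999, 13265 and 11850 with LPS (log2 2.74 ± 0.16, adjusted p = 1.29e-07). All 3 were separate between the groups. Of 32 genes of phosphoinositide 3-kinase signalling 12 rose and 8 fell (median 0.05), among them the subunits Pik3r5 (log2 2.26 ± 0.16, adjusted p = 5.15e-07) and Pik3cd (log2 2.06 ± 0.15, adjusted p = 8.31e-07). Of 61 interferon-induced genes 52 rose and 2 fell (median 2.45, above 0 under every scaling). Gbp5, a guanylate-binding protein, had 247, 179.8 and 119.6 in the controls and 24896, 17405 and 24207 with LPS (log2 6.96 ± 0.24, adjusted p = 3.02e-09). The serpins Serpina3f (log2 6.24 ± 0.35, adjusted p = 1.05e-07) and Serpina3g (log2 5.59 ± 0.30, adjusted p = 7.17e-08) rose in a family of which 9 of 25 rose and 2 fell.

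**Figure D4:**
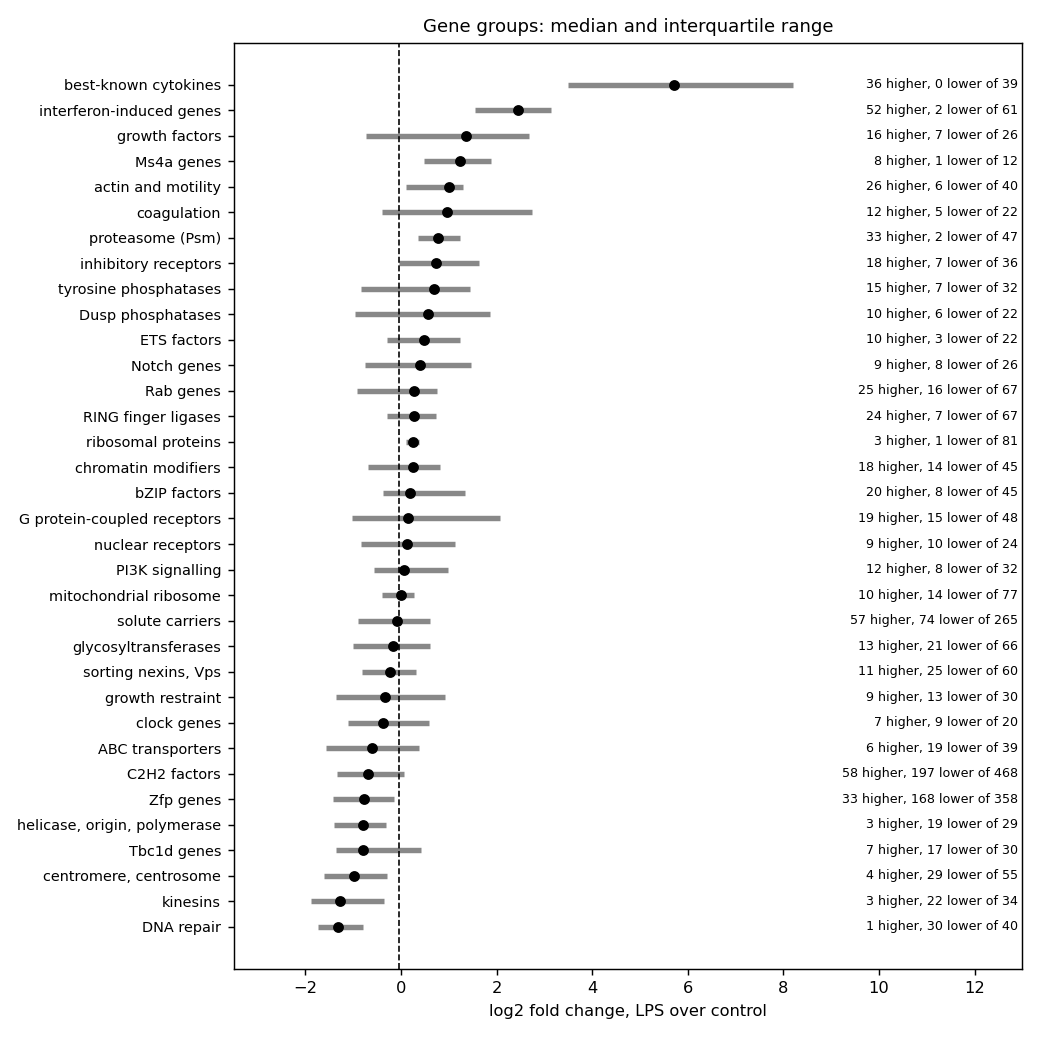
Median log2 fold change (point) and interquartile range (bar) of gene families, lists and transcription factor families named in the text, with the numbers called higher and lower of those tested; the dashed line is the median of all genes tested, −0.05. Interferon-induced and cytokine genes sit highest, repair genes and kinesins lowest.

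Ribosomal and mitochondrial genes moved little relative to the median of all genes on the deposited scale, and their calls depend on the scaling. Of 81 cytoplasmic ribosomal protein genes 3 rose and 1 fell (median 0.24). Under CPM scaling none of them was higher and 51 were lower, and under quantile normalization 3 and 65. Of 77 mitochondrial ribosomal protein genes 10 rose and 14 fell (median 0.00), with 2 higher and 60 lower under CPM scaling. As shares of reads the ribosomal protein genes took 3.69 ± 0.50% in the controls and 2.66 ± 0.284% with LPS, and the mitochondrially encoded genes 0.878 ± 0.0716% and 0.540 ± 0.0321%. Mitochondrial rRNA mt-Rnr2 had 2047, 2659 and 2130 in the controls and 3534, 4406 and 4237 with LPS (log2 0.84 ± 0.16, adjusted p = 0.00133), and was not called under CPM scaling (0.13) or quantile normalization (0.18). Both MAP kinase phosphatases with the steepest rise, Dusp2 (log2 5.47 ± 0.19, adjusted p = 2.71e-09) and Dusp16 (log2 4.41 ± 0.21, adjusted p = 2.77e-08), belong to a family of which 10 of 22 rose and 6 fell (median 0.56, below 0 under CPM scaling). Of 30 Tbc1d genes, regulators of Rab GTPases, 17 fell and 7 rose (median −0.80, below 0 under every scaling), led by the glucose transporter traffic regulator Tbc1d4 (log2 −5.22 ± 0.22, adjusted p = 1.1e-08). Histone-modifying and remodelling genes split into 18 rises and 14 falls of 45 (median 0.24, below 0 under CPM scaling). The H3K27 demethylase Kdm6b (log2 2.56 ± 0.15, adjusted p = 1.61e-07) and the mRNA-stabilizing Arid5a (log2 3.83 ± 0.22, adjusted p = 1.12e-07) rose. Hdac11 (log2 −2.98 ± 0.48, adjusted p = 0.000385) and Smarca2 (log2 −2.48 ± 0.17, adjusted p = 4.55e-07) fell. Of 22 olfactory receptor genes tested 4 rose and none fell (median 0.11, below 0 under CPM scaling). The share that rose was near that of all genes tested, 20.5%. Olfr433 had 2.79, 2.88 and 4.12 in the controls and 64.1, 68.5 and 54.1 with LPS (log2 3.90 ± 0.35, adjusted p = 4.46e-06). Olfr56, whose exons overlap those of the interferon-induced Ifi47, had 23, 21.6 and 23.1 in the controls and 308, 233.6 and 319 with LPS (log2 3.60 ± 0.23, adjusted p = 2.36e-07).

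Promoters of the genes that rose most were poor in CpG and richer in the motifs of the signalling factors. RefSeq promoters (250 bases before to 50 after the start, the first listed start of a gene) were matched by symbol to 12113 of the 19975 genes (60.6%). The κB core GGANTTTCC, searched as all motifs on both strands, was in 1.40% of all 12113 promoters. It was in 3.53% of the 794 of genes that rose by at least 4-fold, in 13.4% of the 97 that rose by at least 32-fold and in 0.570% of the 702 of genes that fell by at least 4-fold. The interferon response core GAAANNGAA was in 7.60%, 14.2%, 17.5% and 5.84% of the same sets, and the AP-1 site TGANTCA in 5.58%, 10.7%, 14.4% and 6.55%. A TATAAA box stood in 7.78%, 12.97%, 24.7% and 9.97%. The GC box GGGCGG was less common in the rising sets, at 59.96%, 52.3%, 40.2% and 53.8%, and the ratio of observed to expected CpG had medians of 0.728, 0.542, 0.376 and 0.667. The cyclic AMP element TGACGTCA was in 3.04%, 2.39%, 1.03% and 2.71%, and the E-box CACGTG in 9.56%, 7.81%, 7.22% and 10.7%. The best-known cytokine, chemokine and effector genes were not taken out of the rising sets. In the 26 of them with a promoter the κB core was in 30.8% and TATAAA in 42.3%, with a median CpG ratio of 0.217. Their part in the shares of the rising sets was not tested.

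Families differed more than these broad sets. Of the 51 interferon-induced genes with a promoter, such as Ifi205, 60.8% held the interferon core, against 7.60% of all promoters. In the 24 replication genes with a promoter, such as Mcm7, the E2F motif TTTNNCGC was in 54.2% (7.87% of all) and CCAAT in 62.5% (38.05% of all). Among 27 kinesin promoters the TTTGAA element was in 37.0% (12.4% of all). CCAAT was also in 48.5% of the 293 Zfp promoters and in 44.0% of genes that fell by at least 4-fold. The longest coding transcript held the AU-rich nonamer TTATTTATT, a letter pattern known from unstable mRNAs, in 8.30% of 14490 genes. The shares were 10.8% of those that rose and 6.38% of those that fell by at least 4-fold, and 16.4% of the 110 that rose by at least 32-fold. Longer transcripts hold it more often by their length. In the shortest quartile of transcripts it was in 2.70% of all genes, 5.99% of the 267 that rose by at least 4-fold, and 1 of the 146 that fell by at least 4-fold. The shares were closer in the longest quartile, at 15.8% of all genes, 17.0% of 194 such rises and 13.8% of 239 such falls. A match is a description of letters in a window, and which factor binds there was not tested.

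The results for stromal and endothelial genes depended on control 1. Of 22 fibroblast and stromal markers 8 rose and none fell with all 6 libraries (median 1.26), and 21 of 22 rose without control 1 (median 1.92). Pdgfrb, a receptor of pericytes and fibroblasts, had 296, 71.9 and 73.4 normalized reads in controls 1 to 3 and 709.6, 850.3 and 1093 with LPS (log2 2.90 ± 0.49, adjusted p = 0.00144). Thy1 had 92, 81.3 and 80.8 in the controls and 221, 306 and 609 with LPS (log2 2.02 ± 0.31, adjusted p = 0.0003). Both were above all controls in every LPS library. Col3a1, a fibrillar collagen gene, had 2405, 398 and 578 in the controls and 1411, 1724 and 3541 with LPS (adjusted p = 0.123). Col1a1 had 15661, 3538 and 5855 in the controls and 9439, 14530 and 20956 with LPS (adjusted p = 0.13). In both, control 1 lay among the LPS libraries and controls 2 and 3 below them. Without control 1 both were called higher, Col3a1 by 2.09 (adjusted p = 0.00104) and Col1a1 by 1.64 (adjusted p = 0.00269), and Pdgfrb stood at 3.57. Of 11 endothelial markers 1 rose with all libraries (median 0.31, below 0 under CPM scaling, with DESeq2 and without control 3) and 5 without control 1 (median 1.19). Their summed level was 1717, 621 and 514.5 in controls 1 to 3 and 1902 to 2142 with LPS. In some of them control 1 lay above every LPS library, as in Cdh5 (369 against 134 to 241), though not in the sum. Stromal markers took 0.287, 0.0563 and 0.0805% of the reads in the controls and 0.112 to 0.208% with LPS. By share control 1 thus lay above every LPS library, and the group means were 0.141 ± 0.127% and 0.151 ± 0.0510%. Of the 72 genes high in control 1, 16 were called. Over all genes the counts without control 1 were 4011 higher and 3771 lower.

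**Figure D5:**
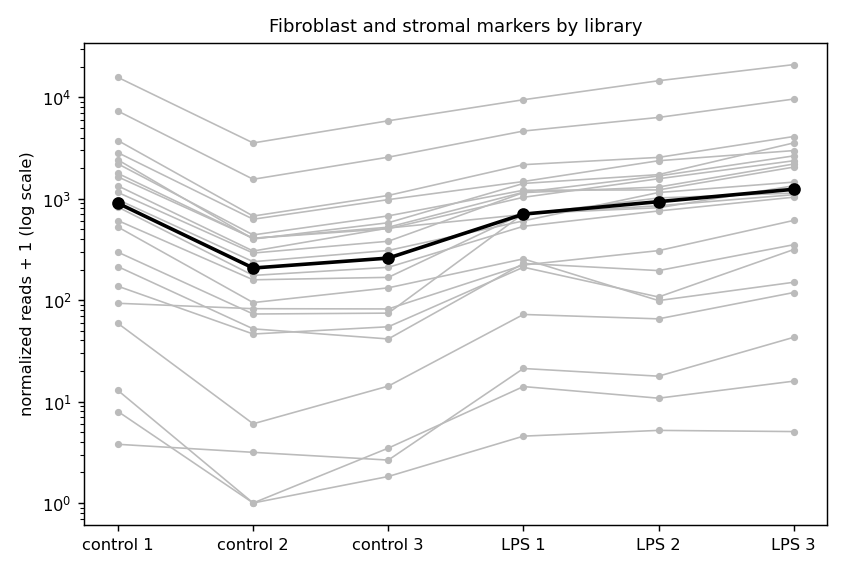
Normalized reads (logarithmic vertical axis) of the 22 stromal markers in each of the 6 libraries; each grey line is 1 marker, and the black line is their median. On this scale control 1 is level with the LPS libraries, and controls 2 and 3 lie lower.

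Markers of other marrow cells moved less evenly. Of 9 dendritic cell markers 4 rose and 1 fell (median 0.88, above 0 under every scaling). Ccr7, the receptor that guides cells to lymph nodes, had 85.7, 80.6 and 80.0 in the controls and 619, 656 and 752 with LPS (log2 3.02 ± 0.17, adjusted p = 8.96e-08). Of 9 osteoclast markers 3 rose and 2 fell (median 0.42, below 0 under CPM scaling). The gelatinase gene Mmp9 went from 874, 662 and 763 to 4389, 5407 and 3188 (log2 2.47 ± 0.20, adjusted p = 1.77e-06). The osteoclast factor Nfatc1 went from 1503, 1692 and 1836 to 642, 779 and 773 (log2 −1.20 ± 0.15, adjusted p = 6.6e-05). Of 12 neutrophil and precursor markers 4 fell and 1 rose (median −0.27, below 0 under every scaling). Their summed level was 8899, 5282 and 6568 in the controls and 3224, 3992 and 7153 with LPS, so the groups overlap. The granule enzyme Mpo, made by neutrophil precursors, had 2193, 1279 and 1379 in the controls and 351, 428 and 637 with LPS (log2 −1.78 ± 0.25, adjusted p = 0.000145). Elane, a granule protease, had 1052, 522 and 667 in the controls and 83.1, 123 and 300.4 with LPS (log2 −2.29 ± 0.44, adjusted p = 0.00229), with control 1 highest in both. Cd79b, of the B-cell receptor, had 87.8, 79.1 and 89.9 in the controls and 8.31, 8.39 and 18.9 with LPS (log2 −2.85 ± 0.35, adjusted p = 5.72e-05). The B-cell factor Pax5 had no read in any control and 5.93, 8.39 and 17.6 with LPS. The summed level of the 9 B-cell markers was under that of single macrophage genes, at 96.4 to 135 in the controls and 30.8 to 78.5 with LPS.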

How the data were processed

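The libraries are total RNA of the cultures, sequenced on an Illumina HiSeq and aligned by the authors to mm10 with TopHat2, per the submitters' processing notes and the labels. The read counter, the annotation release and the strand setting were not named in these sources. The deposited values are a signal: for each gene, the reads over the size factor of the library. Each column was divided by its smallest positive value, and 100% of the values came out whole within 0.001, which gave the reads. The deposited log2 fold changes and the deposited p-values come from a test of the authors whose tool is not given. Their adjusted p was under 0.05 for 7786 genes in the authors' deposited table, 3984 higher and 3802 lower, and it was used for nothing else. The deposited gene length, given by the authors, served the length classes.

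Genes that averaged 1 normalized read or more in either group entered a limma 3.58.1 fit (trend and robust) on log2(normalized reads + 1), two-sided, with Benjamini-Hochberg adjustment and R 4.3.3. edgeR 4.0.16 (quasi-likelihood) and DESeq2 1.42.0 on the recovered reads were alternatives, which called 3625 and 3996 genes higher and 4144 and 3817 lower. Counts were also simulated for 18477 genes from the control means, with the same dispersion for every gene and 195 altered genes tested. The test recovered 53 of 96 genes altered 2-fold and 68 of 99 altered 4-fold, with 7 false calls. Far more genes were called in the real data and control 1 stood apart, so these numbers do not give the error of this comparison. The labels do not say whether the triplicates are separate cultures, so the p-values measure only the spread between these libraries, which may be technical. With 3 libraries a group no exact permutation test can go below 0.10, so none was run.

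The members and lists were chosen with earlier results of these data known. Named genes were the 3 largest rises and falls of each abundance class, the 2 largest of each noncoding biotype, members of lists and symbol families with the smallest p, the most read genes, the longest runs of neighbours and 12 set genes. The other 47 named genes were chosen after their values were seen: Il22, Has1, Tlr5, 2010110E17Rik, N4bp1, Lpar5, Ttll9, Gm14005, Bcl2l11, Nfkb2, Nfatc2, Irf1, Stat3, Stat5b, Irf9, Batf2, Maff, Junb, Batf, Fosl2, Fosl1, Fos, Jun, Ets2, Rxra, Brca2, Ercc1, Kif11, Psmb6, Fscn1, Myo5a, Gsn, Gpr155, P2ry12, Siglece, Inhba, Vegfb, Fgf2, F3, Thbd, Gas6, Per2, Cry1, Nr1h3, Deptor, Hdac11 and Plvap. Some genes that the rule names are not reported here. Counts and medians of classes, families and lists are descriptions with no test of their own. Exon numbers, overlaps and neighbours come from GENCODE M21 on GRCm38.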

Additional observations from a re-analysis of the deposited data

How the results depend on the processing

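Relative to library totals (CPM scaling) 2094 genes were called higher and 8550 lower, and with a fold change of at least 2 required 2710 were called higher and 3001 lower. All other settings run, which were 2 other pseudocounts, 2 other filters, 3 other scalings, edgeR, DESeq2 and the replicate block, gave counts within 1.5 times of 4089 higher and 4266 lower. Leaving out 1 library gave 3321 to 4120 higher and 3111 to 4433 lower. With the replicate number as a block 4786 genes were higher and 4928 lower, but the labels do not say whether the numbers pair the libraries. The deviations of same-numbered libraries correlated at 0.19, 0.09 and −0.03, and control 3 went best with LPS 2 (0.41). With 3 libraries a group these correlations cannot settle whether there was a pairing. Pdgfrb (adjusted p = 0.0908), Gapdh (adjusted p = 0.107) and Elane (adjusted p = 0.111) lost the call under the block, and Malat1 (adjusted p = 6.67e-06) and Neat1 (adjusted p = 0.000242) gained it. Of the 197 called genes named in the report 181 were called in the same direction in every fit that tested them.

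Some values changed sign while called in one of the fits. Under CPM scaling these were Csf1r (−0.68), Lyz2 (−0.52), Ctsb (−0.62), Stat5b (−0.17), Irf9 (−0.17), H2-Aa (−0.17), H2-Eb1 (−0.05), Aim2 (−0.011) and Ercc1 (−0.017). Under quantile normalization they were Csf1r (−0.98), Stat5b (−0.059), Irf9 (−0.008), H2-Ab1 (−0.24), H2-Aa (−0.50) and H2-Eb1 (−0.34). Medians that turned below 0 under CPM scaling were those of pseudogenes (−0.47), genes of 1000 to 10000 reads (−0.27), bZIP (−0.52) and ETS factors (−0.13), Dusp (−0.14), ribosomal protein (−0.46), Rab (−0.42), Rnf (−0.43) and Olfr genes (−0.45), G protein-coupled (−0.55) and nuclear receptors (−0.43), chromatin modifiers (−0.46), Notch genes (−0.30), and endothelial (−0.27), T and natural killer cell (−0.51) and osteoclast markers (−0.27). Quantile normalization did so for genes of 1000 to 10000 reads (−0.11), ribosomal protein genes (−0.66), Rab genes (−0.01), G protein-coupled receptors (−0.27) and Notch genes (−0.062). Medians already near 0, such as that of phosphoinositide 3-kinase signalling, were not counted among these turns. The median of genes of 100 to 1000 reads was 0.011 with size factors from such genes. That of nuclear receptors was −0.10 with edgeR, −0.032 with a minimum mean of 10, and −0.019 to 0.20 when 1 library was left out, lowest without LPS 3 or control 1. That of endothelial markers was −0.14 with DESeq2. Leaving out 1 library put it between −0.16 (without control 3) and 1.19 (without control 1), and that of T and natural killer cell markers between −0.12 (without LPS 3) and 0.50. The causes were not tested. The CPM median of all genes lay at −0.68, so most of these are small changes relative to that shift. The classing by the control mean was chosen after seeing the data. Counting error is largest for genes under 10 reads, of which 974 of 6429 were called. The part of depth in that share was not tested.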
